A study of Mus musculus with 12 samples.

Results

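Nup50, Carhsp1, Alkbh4 and Taf1a are 4 genes whose products act in the nucleus or on RNA, followed here across kidneys of mice with and without a Mettl3 knockout. They were found as the probes with 10 spots per array whose accession in the array files belongs to one of these genes in RefSeq. The probes are A_51_P411297 for Nup50, A_51_P163444 for Carhsp1, A_51_P209965 for Alkbh4 and A_51_P516057 for Taf1a. They make 4 of 60706 non-control probes and 4 of the 45 probes with 10 spots that matched a gene symbol. No symbol was sought for the other probes. The genes were chosen because earlier values from these same arrays had drawn attention to them. For Nup50 those values were the supernatant and summed signals of knockout against wild type, for Carhsp1 and Alkbh4 the m6A ratio of knockout against wild type, and for Taf1a a high m6A ratio. These chosen values are therefore given as descriptions, with no p of their own, and the counts of the 4 genes among the called probes stand only beside the share of all probes called.

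The tested group was 3 male C57BL/6 mice labelled as METTL3-cKO, a conditional knockout, and the wild-type (WT) group was 3 male C57BL/6 mice. All 6 animals were aged 6 to 8 weeks and received glyoxylate intraperitoneally, 100 mg/kg in 200 µl daily for 7 days, which leads to calcium oxalate crystals in the kidney. The labels do not name a Cre driver or the cells in which Mettl3 was deleted, and no value of Mettl3 itself was analysed here, which leaves the labels of genotype unchecked. Kidney RNA from each animal was divided with an antibody against N6-methyladenosine (m6A) into the antibody-bound fraction (IP, red Cy5) and the unbound supernatant (Sup, green Cy3), and both went onto one array, giving 12 samples on 6 arrays.

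The m6A mark is written on nascent RNA by a complex whose catalytic subunit is Mettl3, is removed by the dioxygenases Fto and Alkbh5, and is read by YTH-domain proteins that affect splicing, translation and decay. Nup50 encodes a protein of the nuclear basket of the pore, where it binds importin alpha and helps to release imported cargo. Carhsp1 encodes a small cold shock domain protein that binds RNA. Alkbh4 belongs to the AlkB family of dioxygenases, the family of Fto and Alkbh5, and its product is known for demethylating a lysine of actin. Taf1a encodes a subunit of the selectivity factor that brings RNA polymerase I to the promoter of the ribosomal RNA genes.

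The arrays differed in how well they measured the supernatant. The share of non-control probes that cleared background in the supernatant channel was 49.9% to 56.9% on the cKO arrays, against 38.5%, 52.5% and 31.7% on WT arrays 1, 2 and 3, while the IP channel gave 53.7% to 56.1% on the cKO arrays and 52.1% to 54.8% on the WT arrays. The file headers record 2 scans: scan 1 held WT arrays 1 and 3, and scan 2 held WT array 2 with the 3 cKO arrays, so that scan and genotype nearly coincide. With 3 arrays in a genotype, their number sets the precision of what follows. The lists of kidney and other cell type markers had 1 named probe, that of Mzb1, a plasma cell gene, which was well above background in the IP channel on all 6 arrays and in the supernatant on the 3 cKO arrays and on WT array 2, but not on WT arrays 1 and 3. Its part in the results was not tested, and with the named probes alone the tissue label could not be checked further. In bulk kidney RNA, fewer cells of a type and less RNA per cell cannot be told apart.

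All 4 transcripts lay on the bound side of the median probe in both genotypes. The m6A ratio is the log2 of the IP over the supernatant signal, relative to the median of the probes measured in both channels of the same array. Nup50 averaged 1.06 ± 0.12 in cKO kidneys and 1.56 ± 0.13 in WT kidneys (SD, n = 3 each), which is 2.09 and 2.95 times the median probe. Carhsp1 averaged 0.86 ± 0.22 in cKO and 1.46 ± 0.25 in WT. Alkbh4 averaged 0.68 ± 0.10 in cKO and 1.21 ± 0.09 in WT. The background correction changed some of these levels: with normexp, a background model used here with an added offset of 50 units, Nup50 had 0.79 in cKO and 0.91 in WT, and Alkbh4 had 0.35 in cKO and 0.55 in WT. With loess and Aquantile added, which also remove dye trends with brightness, Nup50 had 0.74 in cKO and 0.76 in WT, and Alkbh4 had 0.33 in cKO and 0.46 in WT. With the processed signals, all 3 of these genes passed limma's test against the median probe in both genotypes. The values for which they were chosen enter these levels, so no p is given. These calls stand only beside the share of all probes called. Being called above the median probe was common: it held for 28.5% of the 28363 probes with a ratio in cKO and for 33.2% in WT. The median of the 4 genes was 0.96 in cKO and 1.51 in WT, against 0.0036 and 0.02 for all probes. The centring of each array on the median of these probes fixes their value near 0, and Taf1a was chosen for a high ratio. Nothing is therefore read from this comparison of medians. Among the 28363 probes with a ratio, Nup50, Carhsp1 and Alkbh4 lay at percentiles 85.2, 81.0 and 76.0 in cKO and at 88.8, 87.4 and 83.3 in WT.

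Taf1a was chosen for the high ratio of its probe, which averaged 2.17 ± 0.30 in cKO and 2.37 ± 0.25 in WT (SD, n = 3 each). This was 4.49 and 5.16 times the median probe, at percentiles 96.8 and 96.1 of the probes with a ratio. The supernatant signal under this ratio was dim: it was well above background on the 3 cKO arrays but on only 1 of 3 WT arrays, so that the WT ratio and its fold rest in part on 2 arrays whose supernatant was not above background. The ratio also depended on the background correction, at 0.96 in cKO and 0.90 in WT with normexp, and at 0.94 in cKO and 0.81 in WT with loess and Aquantile added. Red always marked the IP fraction, so a probe's dye effect and its recovery by the antibody cannot be told apart.

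**Figure D1:**
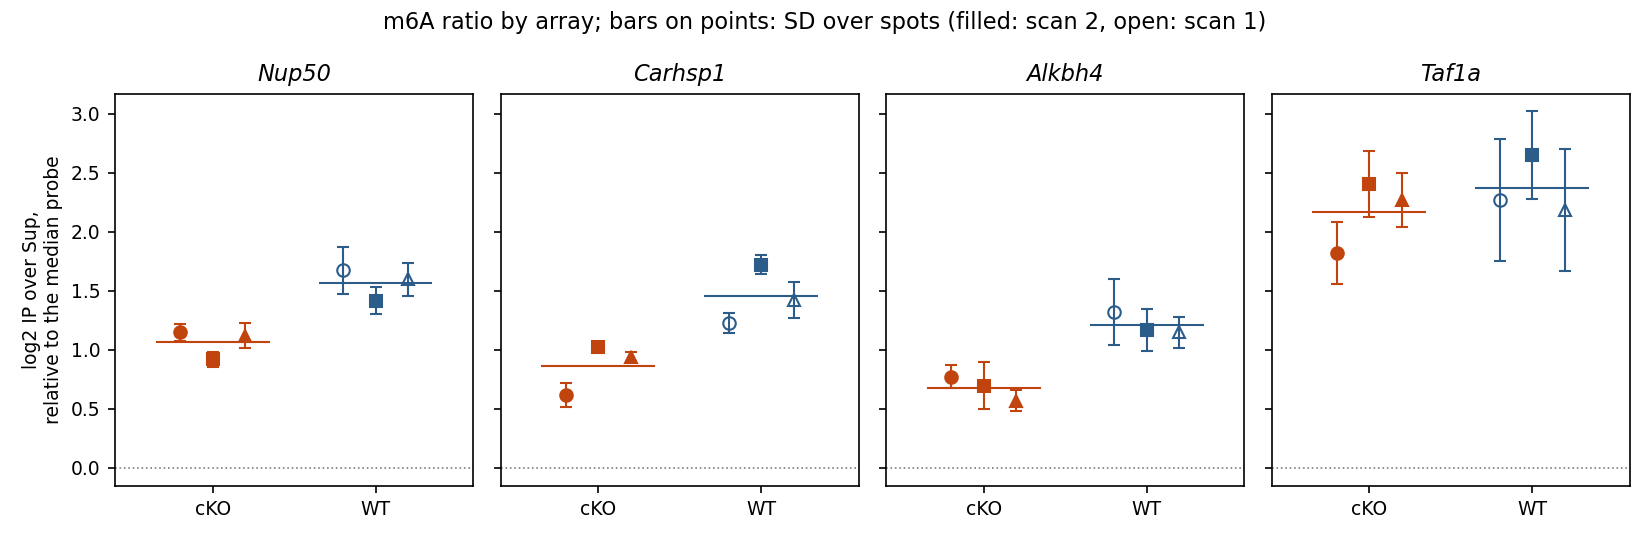
The m6A ratio (log2 of IP over supernatant, relative to the median probe at 0) of each gene on every array, cKO left and WT right, with horizontal lines for the mean of 3 arrays and bars on the points for the SD over the spots of the probe. All 3 cKO points lie below all 3 WT points for Nup50, Carhsp1 and Alkbh4, and the genotypes overlap for Taf1a. That order held for 10.4% of all probes with complete values, and Carhsp1 and Alkbh4 were chosen for their ratio difference.

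The nuclear pore gene Nup50 showed the largest supernatant difference between genotypes of the 4. Its difference was smaller in the bound RNA, by an amount that depended on the processing. Its processed green signal was 886, 833 and 1144 intensity units on cKO arrays 1, 2 and 3, against 370.0, 404 and 355 on WT arrays 1, 2 and 3. Its processed red signal was 1945, 1526 and 2414 units on the cKO arrays, against 1218, 1048 and 1196 on the WT arrays. Every cKO array was thus brighter than every WT array in both colours before scaling between arrays.

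Scaled to the 75th percentile of the same channel on each array, the Nup50 supernatant signal was 1.71, 1.60 and 2.05 times that percentile in cKO, against 0.934, 0.606 and 0.800 times in WT. On the log2 scale this was 0.83 ± 0.19 in cKO and -0.38 ± 0.32 in WT (SD, n = 3 each), a difference of 1.21 ± 0.23 (SE) or 2.31-fold, and the groups did not overlap. The IP signal of Nup50 on the same log2 scale was 1.92, 1.55 and 2.12 in cKO, against 1.62, 0.67 and 1.34 in WT. In the IP the lowest cKO array lay under the highest WT array, and the difference was 0.65 ± 0.29. The summed signal of both scaled channels differed by 0.81 ± 0.26, without overlap.

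The m6A ratio of Nup50 was lower in cKO, at 1.15, 0.92 and 1.12 on cKO arrays 1, 2 and 3, against 1.67, 1.42 and 1.60 on WT arrays 1, 2 and 3. The 2 groups did not overlap, and the difference was -0.50 ± 0.21 (SE). This ratio difference depended on the processing: it was -0.12 with normexp and -0.02 with normexp followed by loess and Aquantile. The supernatant difference of Nup50 was 0.61 and 0.52 under the same settings, and its IP difference was 0.52 and 0.48. Within scan 2, with 1 WT array, Nup50 differed by 1.55 in the supernatant, 1.20 in the IP, 1.30 in the sum and -0.36 in the ratio.

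**Figure D2:**
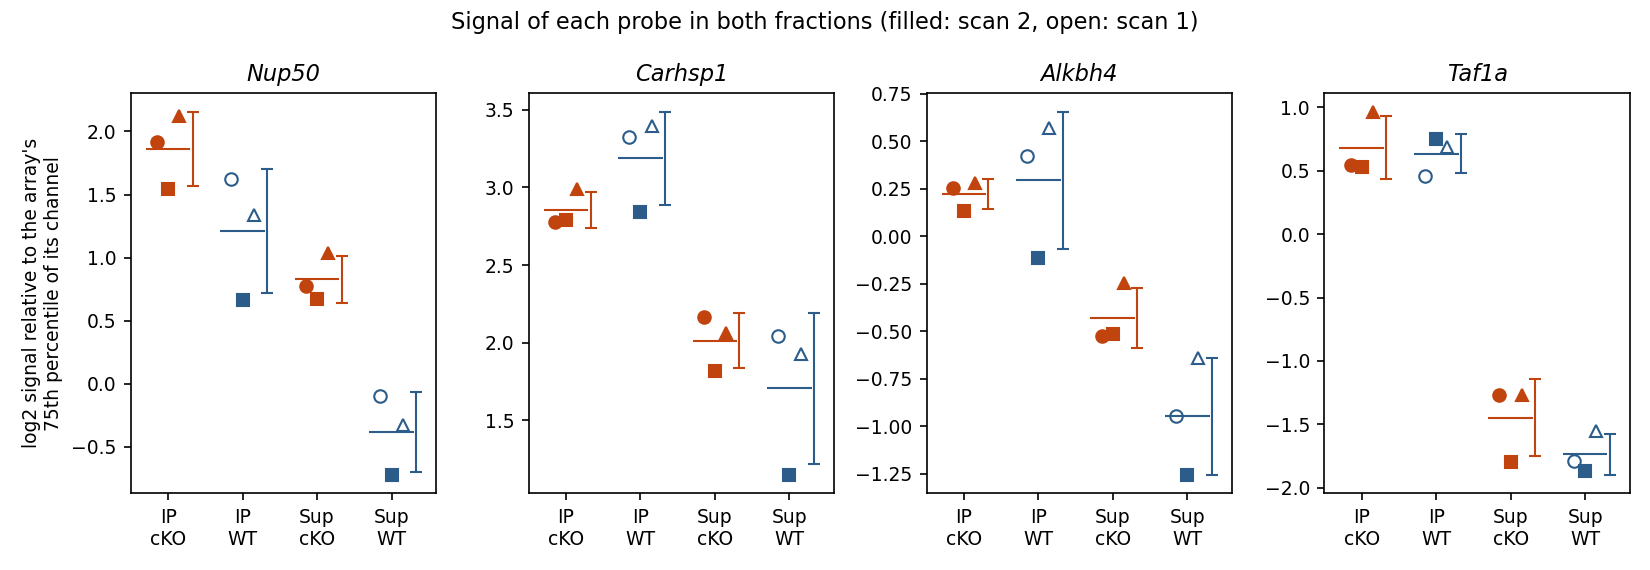
The log2 signal of each gene in the IP and in the supernatant, relative to the 75th percentile of that channel on the same array, with cKO left of WT in each fraction. Points are arrays, filled for scan 2 and open for scan 1, horizontal lines are means of 3 arrays and bars are SD. All 3 cKO points lie above all 3 WT points in the supernatant for Nup50 and Alkbh4, as for 9.52% of all probes. Nup50 was chosen for its supernatant difference. WT array 2 (filled square) is the lowest WT point in both fractions for Nup50, Carhsp1 and Alkbh4. The vertical scale differs between panels.

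Carhsp1, the cold shock domain gene, had a lower ratio on the cKO arrays than on the WT arrays. Its m6A ratio was 0.62, 1.02 and 0.94 on cKO arrays 1, 2 and 3, against 1.23, 1.72 and 1.42 on WT arrays 1, 2 and 3. All cKO arrays lay below all WT arrays, with a difference of -0.60 ± 0.24 (SE). Unlike the values of Nup50, this one changed little with the background correction, at -0.63 with normexp and -0.48 with normexp, loess and Aquantile, and it was -0.86 within scan 2.

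Both fractions of Carhsp1 moved by small and opposite amounts. The processed red signal was 3529, 3619 and 4393 units in cKO, against 3953, 4745 and 4986 units in WT. The green signal was 2321, 1839 and 2330 units in cKO, against 1635, 1477 and 1686 units in WT. The green groups thus did not overlap and the red groups did. After scaling, both overlapped: the supernatant differed by 0.31 ± 0.28 and the IP by -0.33 ± 0.23 on the log2 scale. The summed signal was 3.50 ± 0.11 in cKO and 3.63 ± 0.35 in WT, a difference of -0.14 ± 0.21. Within scan 2 the supernatant differed by 0.87, the IP by 0.0088 and the sum by 0.26, so that the split between the fractions rested on which WT arrays were used. Without WT array 2 the supernatant difference was 0.03.

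Alkbh4, the AlkB family gene, showed a ratio difference of similar size from a dimmer probe. Its m6A ratio was 0.77, 0.70 and 0.57 on cKO arrays 1, 2 and 3, against 1.32, 1.17 and 1.15 on WT arrays 1, 2 and 3. The groups did not overlap and differed by -0.53 ± 0.21 (SE), or -0.49 within scan 2. The difference was -0.20 with normexp and -0.13 once loess and Aquantile were added.

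The Alkbh4 difference lay in the supernatant, with little in the IP. The processed green signal was 360.2, 365 and 469.8 units in cKO, against 206, 278 and 284 units in WT, with no overlap. The processed red signal was 612, 572 and 673 units in cKO, against 530.1, 609.9 and 704 units in WT, with full overlap. On the scaled log2 values the supernatant differed by 0.52 ± 0.23, the IP by -0.07 ± 0.24 and the sum by 0.13 ± 0.21. Within scan 2 the supernatant differed by 0.83, the IP by 0.34 and the sum by 0.51. The supernatant difference was 0.13 with normexp and 0.12 with normexp, loess and Aquantile. Without WT array 1, 2 or 3 in turn, the small IP difference lay between -0.28 and 0.07.

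Taf1a, the RNA polymerase I factor gene, passed none of the tests between genotypes, with a supernatant signal that was well above background on all 3 cKO arrays but only on array 2 of the 3 WT arrays. Its m6A ratio was 1.82, 2.40 and 2.27 on cKO arrays 1, 2 and 3, against 2.27, 2.65 and 2.18 on WT arrays 1, 2 and 3, with overlap. The difference was -0.20 ± 0.25 (SE), for which limma's test over all probes gave adjusted p = 0.704, and without 1 array it lay between -0.32 and -0.03. Within scan 2, with 1 WT array and a detected supernatant on every array, it was -0.48. The processed green signal of Taf1a was 215, 149.7 and 231 units in cKO, against 115, 183 and 151 units in WT. The processed red signal was 752, 755 and 1081 units in cKO, against 544, 1113 and 764 units in WT. Neither colour separated the genotypes. The adjusted p was 0.753 for the supernatant, with a difference of 0.29 ± 0.23, 0.953 for the IP, with 0.05 ± 0.22, and 0.953 for the sum, with 0.09 ± 0.19. With normexp the ratio and supernatant differences of Taf1a took the other sign, at 0.06 and -0.07.

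Counted over the 4 genes, 0 passed limma's test in any of the 4 comparisons of cKO with WT in the main fit, after adjustment over all probes. The share of all probes called was 0.00353% for the ratio, 0.221% for the supernatant, 0.104% for the IP and 0.191% for the summed signal. At an unadjusted p under 0.05 the counts were 3 of 4 for the ratio, 1 for the supernatant, 0 for the IP and 1 for the sum, beside 16.8%, 10.3%, 11.8% and 9.67% of all probes. Nothing is read from these counts, because the genes were chosen for such values. The 3 cKO arrays lay below the 3 WT arrays in the ratio for Nup50, Carhsp1 and Alkbh4, as for 10.4% of all probes with complete values. They lay above them in the supernatant for Nup50 and Alkbh4, against 9.52% of all probes, and in the summed signal for Nup50, against 6.14%. In the IP no gene of the 4 was separated in the direction of lower cKO values, against 10.8% of all probes. These shares count 1 direction only. In the ratio, 2912 of 28084 probes were separated with lower cKO values and 3967 with higher. In the supernatant, 2962 of 31114 were separated with higher cKO values and 2225 with lower. In the sum, 2199 of 35789 were separated with higher cKO values and 3327 with lower. The median difference of the 4 genes was -0.52 in the ratio, 0.41 in the supernatant, -0.01 in the IP and 0.11 in the sum. All probes had medians of 0.03, 0.0015, -0.0077 and -0.01. The choice of the genes enters these separations and medians as well, so nothing is read from them.

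**Figure D3:**
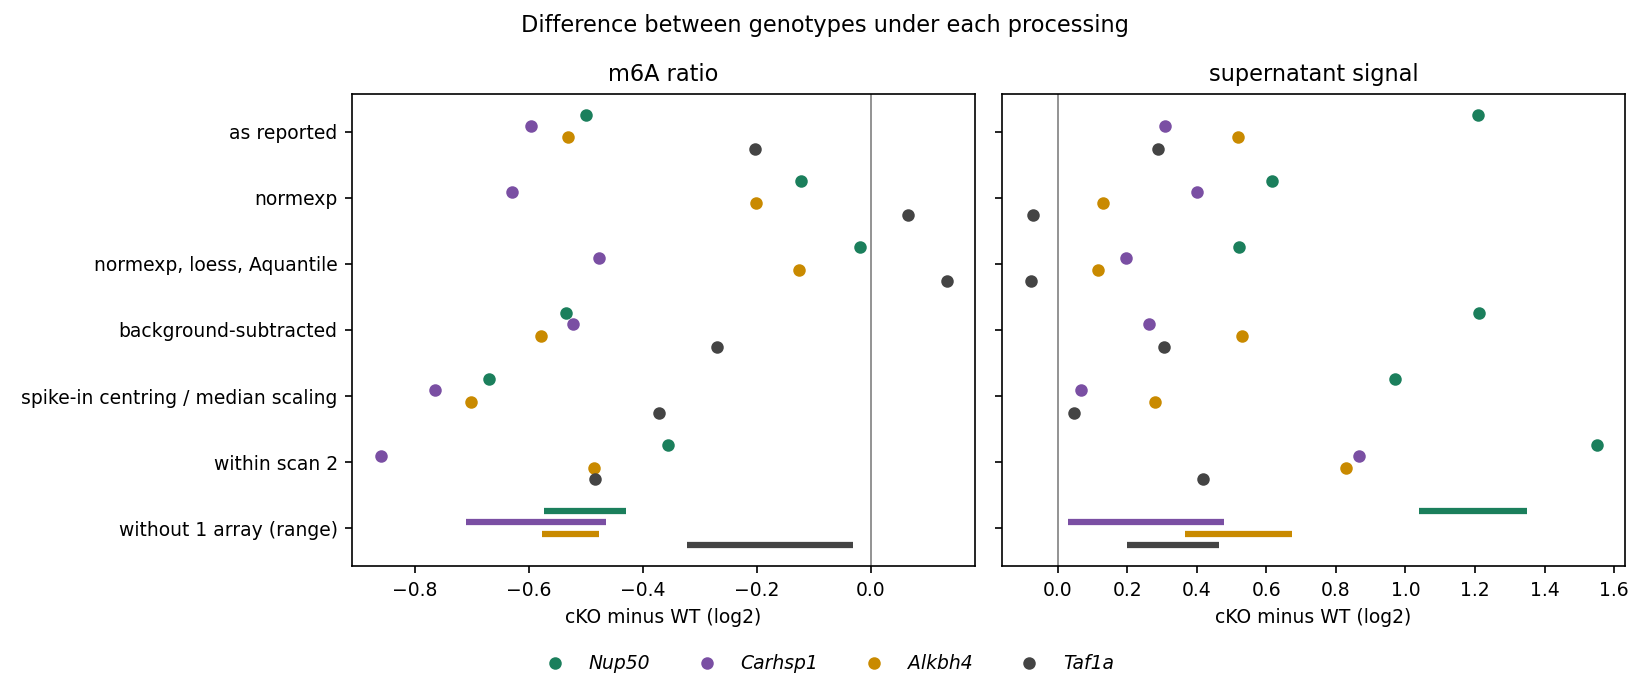
The cKO minus WT difference (log2) of each gene in the m6A ratio (left) and in the supernatant signal (right) under different processing, with bars at the bottom for the range when 1 array is left out. The Nup50 ratio difference of -0.50 comes near 0 with normexp, loess and Aquantile (-0.02), and that of Carhsp1 stays between -0.86 and -0.46. The supernatant difference is above 0 in every row shown for Nup50, Carhsp1 and Alkbh4, and changes sign for Taf1a.

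How closely the spots of a probe agreed differed between the genes and between the genotypes. The SD of the log2 ratio over the spots of one array ranged from 0.06 to 0.20 for Nup50, from 0.04 to 0.15 for Carhsp1, from 0.09 to 0.28 for Alkbh4 and from 0.23 to 0.52 for Taf1a. The median spot SD was lower in cKO for each gene, for example 0.07 in cKO and 0.14 in WT for Nup50, and 0.26 in cKO and 0.51 in WT for Taf1a. Spots of one array share one RNA sample and are not replicates. The largest standard error that the spots gave to one array's ratio was 0.06 for Nup50, 0.05 for Carhsp1, 0.09 for Alkbh4 and 0.17 for Taf1a, which covers the spots of one hybridisation and neither the spread between animals nor the choice of background correction.

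The dim green signals on WT arrays 1 and 3 touched Alkbh4 and Taf1a. All IP spots of the 4 probes were well above background on all arrays, as were all supernatant spots of Nup50 and Carhsp1. For Alkbh4 the supernatant count was 30 of 30 spots in cKO and 24 of 30 in WT, with 9, 10 and 5 of 10 spots on WT arrays 1, 2 and 3. For Taf1a it was 28 of 30 spots in cKO and 14 of 30 in WT, with 3, 10 and 1 of 10 spots on WT arrays 1, 2 and 3. The Taf1a supernatant was thus well above background, by the rule that at least 0.5 of the spots pass, on all 3 cKO arrays and on 1 of 3 WT arrays. For Alkbh4, the ratio difference was -0.49 within scan 2, with 1 WT array, where all 10 supernatant spots passed on each array. Over all arrays it was -0.20 with normexp and -0.13 once loess and Aquantile were added. The part of the unequal detection in the ratio differences was not tested.

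**Figure D4:**
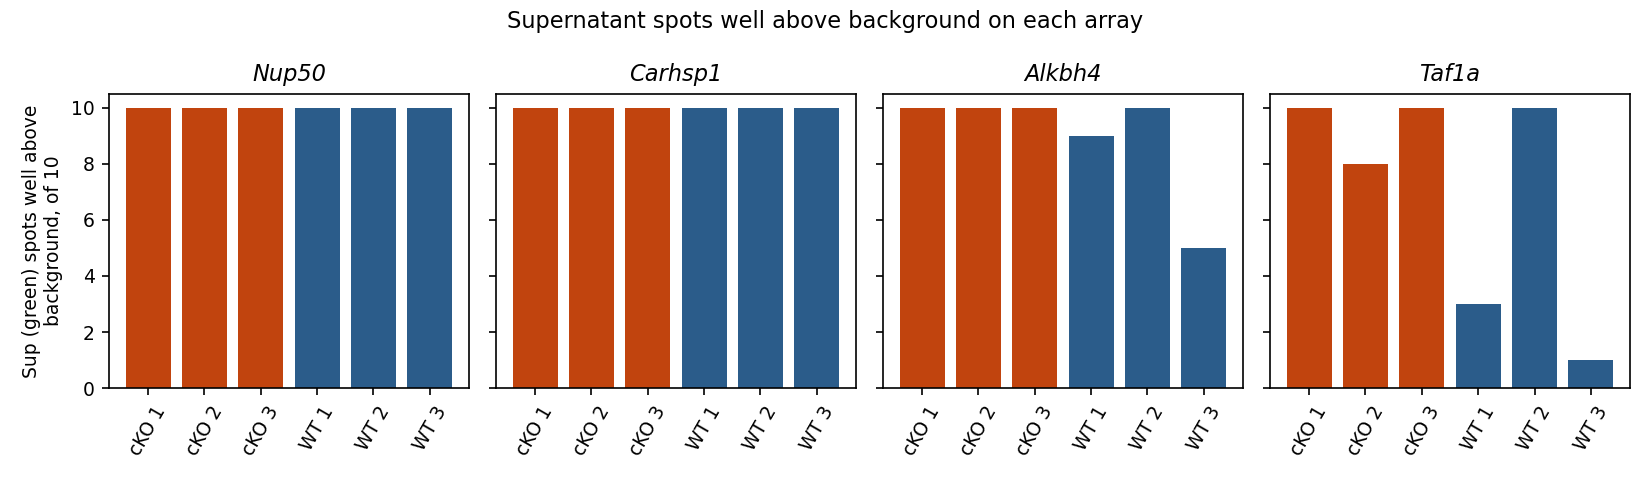
The number of supernatant spots, of 10 per array, that were well above background for each gene on each array, cKO arrays left of WT arrays. Bars reach 10 on all arrays for Nup50 and Carhsp1, fall to 5 for Alkbh4 on WT array 3, and fall to 3 and 1 for Taf1a on WT arrays 1 and 3.

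The 4 genes were also compared in the shape of their profile over the 6 arrays, as the root mean square difference of log2 values after each probe's own mean was subtracted. In the m6A ratio the closest pair of the 4 was Nup50 and Alkbh4, 0.11 apart, while Nup50 and Taf1a were the farthest, at 0.35. Among 30 other named genes with complete values, the ratio profile of Nup50 was nearest to Rps4l, a ribosomal protein gene (0.16), and Hyal3, a hyaluronidase gene (0.25). That of Alkbh4 was nearest to the same pair of genes, Hyal3 (0.20) and Rps4l (0.20). Carhsp1 lay nearest to Lhx1, which encodes a LIM homeobox transcription factor of the developing kidney (0.09), and Tm9sf1 (0.16). Taf1a lay nearest to Gsta4, a glutathione transferase gene (0.12), and Gsdmd, the gene of a pore-forming protein of pyroptosis (0.13). The median distance to the 30 named genes was 0.37 for Nup50, 0.33 for Carhsp1, 0.37 for Alkbh4 and 0.28 for Taf1a.

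In the supernatant, Nup50 lay 0.38 to 0.51 from the other 3 genes, while those 3 lay 0.21 to 0.25 from each other. Nup50 was chosen for its supernatant difference, so its distance follows in part from that choice. Its supernatant profile was nearest to Rps4l (0.12) and to H2-M2, of the nonclassical class I histocompatibility genes (0.26), which differed between cKO and WT by 1.09 and 0.92 in the supernatant, against 1.21 for Nup50. The nearest to Carhsp1 were Lhx1 (0.19) and Bambi, which encodes a pseudoreceptor for TGF-beta ligands (0.19). Alkbh4 was nearest to H2-Q7 (0.17) and Bambi (0.18), and Taf1a to Tm9sf1 (0.20) and Bambi (0.20). These distances describe 6 arrays that share the same 2 scans and scaling, and carry no test. The values for which the genes were chosen enter their profiles. The neighbours were picked by these same profiles, so their similar differences are no separate result.

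The pathways around the 4 genes were not followed further, because symbols were sought only for the probes with 10 spots. Of 22 nuclear pore and transport genes only Nup50 had a named probe, of 13 genes of RNA polymerase I initiation only Taf1a, of 9 AlkB family genes only Alkbh4, and of 8 cold shock domain genes only Carhsp1. Of 18 writers, erasers and readers of m6A, 0 had a named probe. Whether other probes of the array measure these genes was not examined.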

How the data were processed

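Per the submitters' processing notes, the deposited intensity values came from Agilent Feature Extraction 11.0.1.1. Per the file headers, the processed signals are linear, background-subtracted and dye-normalised by the authors within each array, and the median spot and background signals are uncorrected. Each of 6 arrays held 62976 spots, 0 of them saturated. The flags for background and outliers, another deposited kind of value, were used as filters. Groups came from the sample titles. The software was limma 3.58.1 under R 4.3.3, with files read by the data.table package 1.17.8. Control and outlier spots were left out and the log2 values of a probe's spots averaged. Ratios were centred per array on the median of those probes that, in both channels, cleared background on 3 or more of the 6 arrays. Fractions were scaled to the 75th percentile of non-control probes, and the sum added both scaled fractions. A fraction was tested where its own channel passed that filter, the sum where either did. A probe with 10 spots was above background where at least 0.5 of its spots were. Genotypes were compared with lmFit and eBayes over all probes in two-sided tests; the threshold was 0.05 after Benjamini-Hochberg adjustment. The fits were tested on simulated data.

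Symbols, and nothing else, were taken from RefSeq's genes of GRCm38.p6; 45 of 50 probes with 10 spots matched. The genes and lists were chosen with earlier results of these data known. Named genes are the 4 genes and, for each, the 2 other named probes with the nearest profile in the ratio and in the supernatant. Alternatives were normexp on the median signals with an offset of 50, alone and with loess and Aquantile, background-subtracted signals with a floor of 1, other centring, scaling and filters, spot medians, trend and robust variance, the replicate number or the scan as a block, scan 2 alone, and leaving out each array. The plan spoke of slides, but the headers record scans, which were used. Centring on all probes, or on those above background on all 6 arrays, was added after the data were seen. The labels call the animals biological replicates.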

Additional observations from a re-analysis of the deposited data

How the results depend on the processing

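Between genotypes, the counts of probes past limma's adjusted threshold were 1 for the ratio, 69 for the supernatant, 35 for the IP and 69 for the sum. In that order they were 0, 23, 18 and 19 with normexp, 112, 27, 5 and 22 with normexp, loess and Aquantile, 0, 159, 70 and 159 with trend and robust variance, 0, 1, 0 and 2 with the scan as a block, and 0, 158, 5 and 3 within scan 2. Background-subtracted signals gave 3, 41 and 17 for ratio, supernatant and IP, and no filter gave 0, 16 and 4. For the ratio, spike-in centring gave 0 and probes above background on all 6 arrays gave 76. Leaving out 1 array gave 0 to 2, 0 to 100, 0 to 11 and 4 to 42. Settings with a count of 0 had 1928 to 6743 probes at an unadjusted p under 0.05. Against the median probe the counts, in both directions, were 16515 in cKO and 19004 in WT, and without 1 array 12181 to 17157 in cKO and 17064 to 18724 in WT. The scan could not be used as a block there, since all cKO arrays lie in scan 2.

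With the replicate block the counts were 0, 0, 7 and 28 between genotypes. Same-numbered arrays correlated in their deviations at 0.08 to 0.33 in the ratio, 0.07 to 0.26 in the IP and -0.11 to 0.17 in the supernatant. The arrays that correlated best with their own number were 6 of 6 in the ratio and 5 of 6 in the IP. They were 2 of 6 in the supernatant and 2 of 6 in the sum. The measures thus differed, and the numbers were not taken as pairs.

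For the 4 genes, 19 of 412 values turned sign, all of them differences between genotypes. The 412 also hold the levels against the median probe, none of which turned sign. Only 1 value changed its call. With trend and robust variance the supernatant difference of Nup50 passed limma's adjusted threshold, as did 159 of 31173 probes in all. Nup50 was chosen for this difference, so nothing is read from that call. Among the differences that turned were some as large as -0.33 for the IP of Carhsp1 and 0.29 for the supernatant of Taf1a. With normexp, and with normexp, loess and Aquantile, Taf1a gave 0.065 and 0.13 in the ratio, -0.072 and -0.078 in the supernatant and -0.011 and -0.0074 in the sum. With the scan as a block, and within scan 2, the IP gave 0.0088 for Carhsp1, 0.34 for Alkbh4 and -0.071 for Taf1a, and the sum 0.26 for Carhsp1. Without 1 array the IP ranged from -0.28 to 0.067 for Alkbh4 and from -0.095 to 0.12 for Taf1a, and the sum from -0.059 to 0.27 for Alkbh4 and from -0.041 to 0.18 for Taf1a. The causes were not tested. Spike-in centring shifted the median ratio difference of all probes to -0.14, centring on all probes also to -0.14, and median scaling that of the supernatant to -0.24 and of the sum to -0.13.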
